A study of Mus musculus with 78 samples.

Results

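The comparison described here set the livers of Npc1-/- mice against those of Npc1+/+ littermates at 7 weeks of age, across all genes measured. Its members were the 8 arrays whose sample titles give that age and either genotype, 4 for Npc1-/- and 4 for Npc1+/+, of 78 arrays in the series. Each array measured the liver RNA of 1 mouse, labelled as a biological replicate. All 8 mice were female, on the BALB/c background of the BALB/cNctr-Npc1m1N/J line, littermates born to heterozygous parents and kept on normal chow after weaning, and no treatment is labelled for any of them. The labels call the Npc1-/- mice of this age post-symptomatic and the Npc1+/+ mice asymptomatic. The m1N allele arose spontaneously and is carried in every cell from conception, so these livers do not separate loss of Npc1 in hepatocytes from loss in macrophages or in other organs. For comparison across age, the female Npc1-/- and Npc1+/+ mice of the same line at 5 and at 9 weeks were used, with 4 mice in each of those 4 groups.

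Npc1 is a membrane protein of late endosomes and lysosomes that passes cholesterol, freed from lipoproteins by lysosomal acid lipase, out of the lysosome. It works together with Npc2, a soluble protein that hands cholesterol over to it. Without it, unesterified cholesterol and sphingolipids are stored in lysosomes, and in the liver both hepatocytes and macrophages fill with lipid. Loss of the human gene causes Niemann-Pick disease type C.

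Values are log2 expression, in which a difference of 1 is a 2-fold change, and each set of 4 values runs from mouse 1 to mouse 4. Differences are Npc1-/- minus Npc1+/+ with their standard error (SE), from limma, and p-values are adjusted by Benjamini-Hochberg over the 12638 genes tested. A gene passed when its adjusted p was below 0.05. The median of all values was 5.54, and no detection calls were used, so a difference in which 1 genotype lies well below that level is limited by background. The 8 arrays had similar medians, at 5.60 to 5.65 in Npc1-/- livers and 5.53 to 5.63 in Npc1+/+ livers. An Npc1-/- array correlated more closely with its own genotype than with the other, and so did an Npc1+/+ array (mean r across the genes tested 0.982 to 0.988 within and 0.950 to 0.957 between genotypes).

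Npc1 itself was at 8.82, 9.20, 8.50 and 8.60 in Npc1-/- livers, against 10.11, 9.59, 9.78 and 10.32 in Npc1+/+ livers, and the genotypes did not overlap (log2 difference -1.17 ± 0.16, adjusted p = 1.03e-07, 2.25-fold lower). The position of its probes relative to the insertion in the m1N allele was not analysed here, so a residual signal says nothing about intact transcript. Hepatocyte-defining genes were high in every liver, with a mean level over 11 genes of 13.09 to 13.12 in Npc1-/- livers, against 13.04 to 13.14 in Npc1+/+ livers. Alb, albumin, was at 13.67, 13.60, 13.62 and 13.64 in Npc1-/- livers, against 13.67, 13.57, 13.44 and 13.54 in Npc1+/+ livers, and it did not pass (log2 difference 0.08 ± 0.08, adjusted p = 0.516). Npc1+/+ mouse 3 carried a skeletal muscle signal, with a mean of 6.39 over 14 muscle genes against 5.25 to 5.37 in the other 7 livers. Without that array 2721 genes passed, 1647 higher and 1074 lower.

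With all 8 arrays, 3195 genes passed (25.3% of those tested). Of these, 1806 rose in Npc1-/- livers (14.3%) and 1389 fell (11.0%). These shares are the background for the counts of list members given below. The split depends on the centring of the arrays. It was 56.5% higher as deposited, and 37.4% after each array was centred on its median, which gave 1356 genes higher and 2271 lower. Changes of more than 2-fold were mostly increases, with 311 genes higher (2.46%) and 81 lower (0.641%). The values of the genotypes did not overlap for 1741 genes that were higher in Npc1-/- livers (13.8%) and for 1212 that were lower (9.59%). Over all genes tested the median difference was -0.0007.

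The 4 genes that rose most are known from activated or lipid-filled macrophages and from lysosomal membranes. Gpnmb, a glycoprotein of lysosomal membranes that marks lipid-laden macrophages, was at 11.82, 11.78, 11.72 and 11.97 in Npc1-/- livers, against 5.66, 5.16, 5.26 and 4.85 in Npc1+/+ livers (log2 difference 6.59 ± 0.16, adjusted p = 2.72e-31, 96.3-fold). Mmp12, the macrophage elastase, was at 10.33, 10.56, 10.20 and 10.61 in Npc1-/- livers, against 5.59, 5.19, 5.17 and 5.50 in Npc1+/+ livers (log2 difference 5.06 ± 0.19, adjusted p = 8e-25). Clec7a, the beta-glucan receptor dectin-1, was at 10.51, 10.14, 9.78 and 9.91 in Npc1-/- livers, against 6.15, 5.64, 5.09 and 5.44 in Npc1+/+ livers (log2 difference 4.51 ± 0.18, adjusted p = 7.57e-24). In these 3 genes the Npc1+/+ levels sat near or below the median of all values, and every Npc1-/- liver was more than 3 log2 units above every Npc1+/+ liver. The fourth, Gpr137b, a lysosomal membrane protein, was at 9.01, 8.93, 8.74 and 8.99 in Npc1-/- livers, against 5.18, 4.70, 4.77 and 4.43 in Npc1+/+ livers (log2 difference 4.15 ± 0.18, adjusted p = 2.27e-22). Its pseudogene Gpr137b-ps gave 9.59, 9.23, 9.04 and 9.34 in Npc1-/- livers, against 5.81, 5.90, 5.62 and 5.45 in Npc1+/+ livers, and since the sequences are closely related, signal from 1 of the pair cannot be assigned with certainty.

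The 4 genes that fell most are known as hepatocyte genes. Slco1a1, an organic anion uptake transporter, was at 3.59, 3.48, 3.56 and 3.43 in Npc1-/- livers, against 8.64, 8.47, 9.52 and 9.49 in Npc1+/+ livers (log2 difference -5.52 ± 0.32, adjusted p = 2.51e-18, 45.8-fold lower). Sult3a1, a sulfotransferase, was at 2.78, 2.83, 2.75 and 2.90 in Npc1-/- livers, against 8.09, 7.85, 8.53 and 7.72 in Npc1+/+ livers (log2 difference -5.23 ± 0.25, adjusted p = 4.06e-21). In Npc1-/- livers both were among the low values of the array, below 4, where the array gives little more than background. Ces3b, a carboxylesterase, was at 6.22, 6.57, 6.48 and 5.97 in Npc1-/- livers, against 10.46, 10.33, 11.41 and 10.89 in Npc1+/+ livers (log2 difference -4.46 ± 0.36, adjusted p = 1.53e-13). Mup3, a secreted major urinary protein, was at 7.20, 7.53, 7.43 and 7.48 in Npc1-/- livers, against 11.47, 11.28, 11.63 and 11.67 in Npc1+/+ livers (log2 difference -4.10 ± 0.33, adjusted p = 1.04e-13). No Npc1-/- value of these 4 genes reached the lowest Npc1+/+ value.

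**Figure D1:**
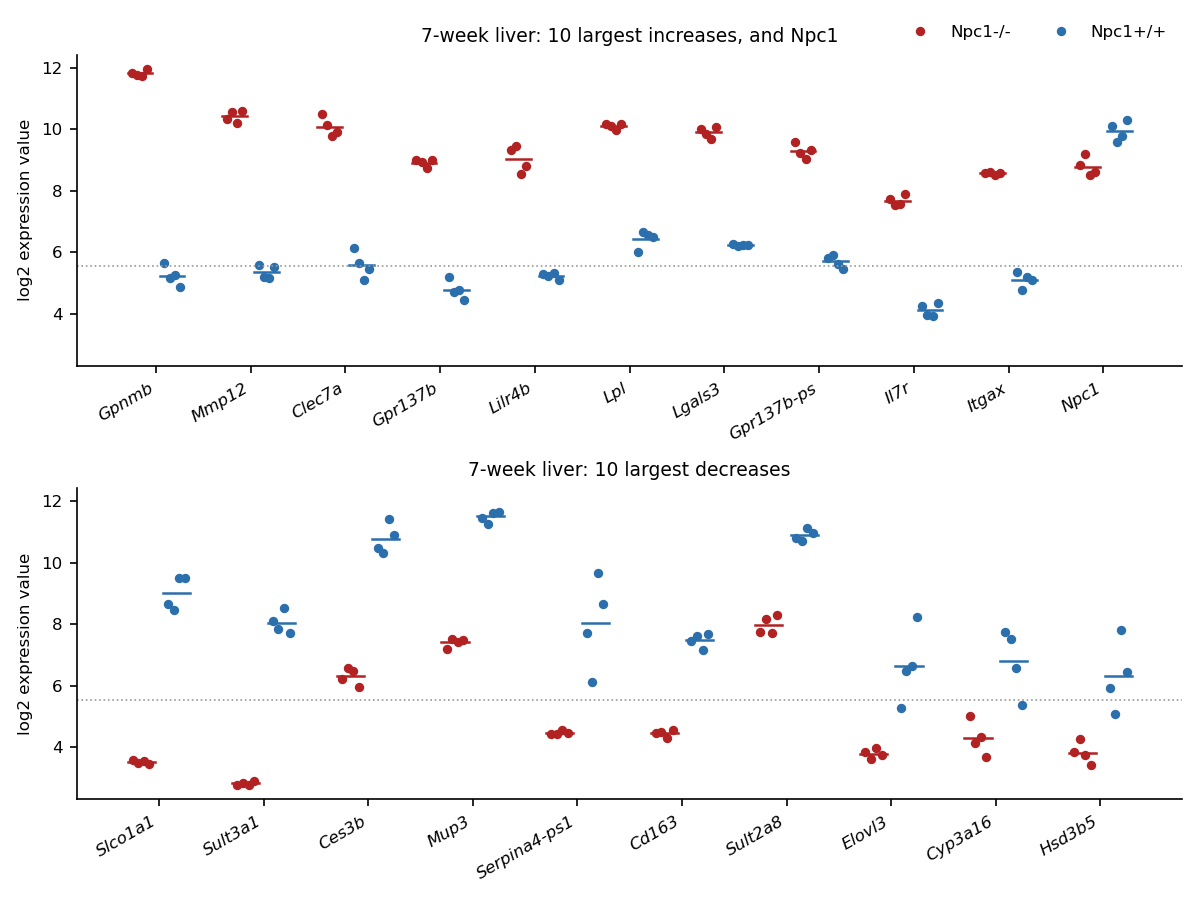
Log2 expression in each of the 8 livers at 7 weeks. The upper panel shows the 10 genes that rose most and, after them, Npc1, which fell. The lower panel shows the 10 genes that fell most. In each gene Npc1-/- is to the left of Npc1+/+. Each point is 1 mouse, the bar is the mean of 4, and the dotted line is the median of all values on the arrays; Gpnmb runs from 11.72 to 11.97 in Npc1-/- livers and from 4.85 to 5.66 in Npc1+/+ livers.

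Liver macrophages take up lipoproteins and dead cells, and lipid-filled macrophages share a set of surface and secreted proteins. Of 17 genes of lipid-laden macrophages, 15 rose and none fell, with a median difference of 2.55, against -0.0007 over all genes tested. All 15 of those separated the genotypes with no overlap. Over the 18 genes of this list on the array, the mean level was 8.33 to 8.60 in Npc1-/- livers, against 5.97 to 6.13 in Npc1+/+ livers. Lgals3, or galectin-3, a secreted lectin, was at 9.996, 9.84, 9.69 and 10.08 in Npc1-/- livers, against 6.26, 6.20, 6.23 and 6.22 in Npc1+/+ livers (log2 difference 3.67 ± 0.14, adjusted p = 3.26e-24). Itgax, the integrin CD11c, was at 8.59, 8.61, 8.51 and 8.59 in Npc1-/- livers, against 5.36, 4.76, 5.19 and 5.10 in Npc1+/+ livers (log2 difference 3.47 ± 0.16, adjusted p = 1.81e-21). Cd36, a receptor for oxidised lipoproteins and fatty acids, differed less, at 9.99, 10.13, 9.70 and 9.87 in Npc1-/- livers, against 8.46, 9.09, 8.75 and 8.38 in Npc1+/+ livers (log2 difference 1.25 ± 0.19, adjusted p = 1.77e-06). The exceptions were Gpr65, an acid-sensing receptor, and Ocstamp, a fusion protein of osteoclasts, whose differences were 0.28 ± 0.20 and -0.01 ± 0.13.

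Genes found in most macrophages rose by less. Of 22 such genes, 20 rose and none fell, and the median difference was 1.02. The mean level was 7.96 to 8.09 in Npc1-/- livers, against 6.67 to 6.69 in Npc1+/+ livers. Cd68, a glycoprotein of macrophage lysosomes, was at 10.67, 10.50, 10.40 and 10.39 in Npc1-/- livers, against 7.03, 7.23, 6.99 and 6.99 in Npc1+/+ livers (log2 difference 3.43 ± 0.12, adjusted p = 5.56e-25). Lyz2, lysozyme, was at 11.99, 11.89, 11.89 and 12.03 in Npc1-/- livers, against 8.58, 8.36, 8.58 and 8.54 in Npc1+/+ livers (log2 difference 3.43 ± 0.16, adjusted p = 1.99e-21). Adgre1, a surface receptor of mature mouse macrophages, was at 7.28, 7.02, 6.94 and 6.90 in Npc1-/- livers, against 6.58, 6.98, 6.72 and 6.68 in Npc1+/+ livers, with overlapping groups and no pass (log2 difference 0.30 ± 0.13, adjusted p = 0.0846). It passed without Npc1+/+ mouse 2 (0.38, adjusted p = 0.0360) and with array weights (0.32, adjusted p = 0.0480). In whole liver, more cells of a type and more RNA per cell cannot be told apart.

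Markers of the resident macrophage of the liver, the Kupffer cell, mostly fell or did not pass. Of 12 Kupffer cell genes 5 fell and 1 rose. Cd163, the receptor that clears haemoglobin bound to haptoglobin, was at 4.46, 4.48, 4.28 and 4.54 in Npc1-/- livers, against 7.46, 7.61, 7.14 and 7.69 in Npc1+/+ livers (log2 difference -3.03 ± 0.18, adjusted p = 4.06e-18, 8.19-fold lower). Clec4f, a lectin restricted to Kupffer cells in mice, was at 7.70, 7.65, 7.24 and 7.30 in Npc1-/- livers, against 8.70, 8.75, 8.83 and 8.87 in Npc1+/+ livers (log2 difference -1.32 ± 0.13, adjusted p = 1.05e-10). The receptor for dying cells Timd4 was at 5.80, 5.76, 5.59 and 5.34 in Npc1-/- livers, against 6.66, 6.85, 6.74 and 6.61 in Npc1+/+ livers (log2 difference -1.09 ± 0.12, adjusted p = 4.3e-10). All Npc1-/- livers lay below all Npc1+/+ livers in these 3 genes, and in Folr2 (-0.94 ± 0.11) and Vsig4 (-0.61 ± 0.17), which also fell. Vsig4 did not pass without Npc1-/- mouse 4 (adjusted p = 0.0513). The gene that rose was Clec1b, the podoplanin receptor CLEC-2, at 8.01, 8.01, 7.49 and 7.31 in Npc1-/- livers, against 6.87, 6.69, 6.47 and 6.68 in Npc1+/+ livers (log2 difference 1.03 ± 0.13, adjusted p = 1.28e-08). Marco and Cd5l, a scavenger receptor and a secreted inhibitor of macrophage death, did not pass, with differences of -0.14 ± 0.11 and -0.06 ± 0.16.

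Of 9 Fc receptors and their signalling proteins 8 rose and none fell. Fcer1g, the signalling chain that Fc receptors share, was at 8.65, 8.28, 8.32 and 8.60 in Npc1-/- livers, against 6.76, 6.92, 6.94 and 6.95 in Npc1+/+ livers (log2 difference 1.57 ± 0.12, adjusted p = 9.25e-15). Syk, the kinase it recruits, was at 7.61, 7.29, 7.36 and 7.54 in Npc1-/- livers, against 5.88, 5.89, 5.97 and 5.82 in Npc1+/+ livers (log2 difference 1.56 ± 0.11, adjusted p = 6.72e-15). MHC class II genes rose for 4 of 6, with H2-Aa at 8.67, 8.46, 8.39 and 8.42 in Npc1-/- livers, against 6.80, 6.79, 6.64 and 6.77 in Npc1+/+ livers (log2 difference 1.73 ± 0.16, adjusted p = 1.48e-11). Il7r, the interleukin-7 receptor, was at 7.73, 7.52, 7.57 and 7.90 in Npc1-/- livers, against 4.24, 3.95, 3.91 and 4.34 in Npc1+/+ livers (log2 difference 3.57 ± 0.18, adjusted p = 4.1e-20). Against 14.3% of all genes tested, in the T and NK cell list 1 of 7 rose, the chemokine gene Ccl5 (0.46 ± 0.11), and in the B cell list 1 of 6 rose, Cd22 (0.86 ± 0.11). Cd3e, a subunit of the T cell receptor complex, was at 5.71, 5.57, 5.89 and 5.61 in Npc1-/- livers, against 6.05, 5.79, 5.84 and 5.77 in Npc1+/+ livers and did not pass (log2 difference -0.17 ± 0.12, adjusted p = 0.328). Neutrophil genes rose for 7 of 12, at low levels. Ngp, a neutrophil granule protein, was at 6.48, 5.85, 5.34 and 5.99 in Npc1-/- livers, against 4.64, 4.68, 4.67 and 4.72 in Npc1+/+ livers (log2 difference 1.24 ± 0.20, adjusted p = 2.5e-06).

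Lysosomal enzymes break down the lipids, sugars and proteins delivered to the lysosome, and many of their genes share a promoter element, CLEAR, which TFEB and its relatives bind. Of 27 glycosidases, sulfatases, lipases and their helper proteins, 22 rose and none fell, with a median difference of 0.49. Hexa, a subunit of the hexosaminidase that breaks down ganglioside GM2, was at 10.63, 10.57, 10.47 and 10.72 in Npc1-/- livers, against 8.73, 8.90, 8.78 and 9.02 in Npc1+/+ livers (log2 difference 1.74 ± 0.09, adjusted p = 3.16e-19). Gla, the galactosidase that acts on globotriaosylceramide, was at 8.34, 8.21, 8.33 and 8.06 in Npc1-/- livers, against 6.93, 6.86, 7.37 and 7.14 in Npc1+/+ livers (log2 difference 1.16 ± 0.13, adjusted p = 1.25e-09). Psap, the precursor of the saposins that present sphingolipids to these enzymes, was at 12.93, 12.87, 12.87 and 12.94 in Npc1-/- livers, against 11.69, 11.76, 11.82 and 11.84 in Npc1+/+ livers (log2 difference 1.13 ± 0.07, adjusted p = 6.93e-18). In each of the 3 the genotypes did not overlap. The partner of Npc1, Npc2, was at 9.26, 9.34, 9.28 and 9.40 in Npc1-/- livers, against 7.93, 8.30, 8.35 and 8.38 in Npc1+/+ livers (log2 difference 1.08 ± 0.08, adjusted p = 4.45e-14), the opposite direction to Npc1 itself. Lipa, lysosomal acid lipase, was at 11.31, 11.20, 11.14 and 11.26 in Npc1-/- livers, against 10.63, 10.93, 10.92 and 10.82 in Npc1+/+ livers (log2 difference 0.40 ± 0.10, adjusted p = 0.00205). Smpd1, the acid sphingomyelinase, did not pass (log2 difference -0.05 ± 0.11, adjusted p = 0.794).

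Cathepsins, the lysosomal proteases, divided. Of 14 cathepsins and related genes, 9 rose and 2 fell. Ctss, a cysteine protease of antigen-presenting cells, was at 11.64, 11.47, 11.39 and 11.43 in Npc1-/- livers, against 8.41, 8.32, 8.28 and 8.33 in Npc1+/+ livers (log2 difference 3.15 ± 0.14, adjusted p = 3.35e-22). The aspartic protease Ctsd was at 12.37, 12.28, 12.32 and 12.31 in Npc1-/- livers, against 10.60, 10.70, 10.78 and 10.80 in Npc1+/+ livers (log2 difference 1.60 ± 0.09, adjusted p = 2.03e-19). Lgmn, the asparaginyl endopeptidase legumain, was at 10.81, 10.64, 10.50 and 10.62 in Npc1-/- livers, against 8.70, 9.00, 8.99 and 9.25 in Npc1+/+ livers (log2 difference 1.65 ± 0.10, adjusted p = 5.95e-18). Ctsc, dipeptidyl peptidase 1, was instead at 8.46, 8.45, 8.39 and 8.20 in Npc1-/- livers, against 9.55, 9.43, 9.91 and 9.81 in Npc1+/+ livers (log2 difference -1.30 ± 0.13, adjusted p = 3.3e-11), and Ctse at 6.94, 7.47, 6.87 and 7.16 in Npc1-/- livers, against 7.62, 7.90, 7.62 and 8.31 in Npc1+/+ livers (log2 difference -0.75 ± 0.15, adjusted p = 0.000158). Both of these were lower in every Npc1-/- liver than in any Npc1+/+ liver. In the proton pump that acidifies lysosomes, 13 of 16 subunits rose and none fell. Its macrophage and osteoclast subunit Atp6v0d2 was at 9.82, 9.87, 9.49 and 9.89 in Npc1-/- livers, against 6.63, 7.35, 6.78 and 6.12 in Npc1+/+ livers (log2 difference 3.05 ± 0.24, adjusted p = 2.87e-14), while Atp6v1a, a catalytic subunit found in most cells, was at 9.66, 9.54, 9.47 and 9.46 in Npc1-/- livers, against 8.40, 8.52, 8.67 and 8.80 in Npc1+/+ livers (log2 difference 0.93 ± 0.10, adjusted p = 1.02e-10). Lysosomal membrane proteins rose for 11 of 23 and 1 fell, Lamp2 (-0.25 ± 0.08), which did not pass without Npc1-/- mouse 3 (adjusted p = 0.0766), without Npc1+/+ mouse 4 (adjusted p = 0.07965) or after quantile normalization (adjusted p = 0.302). Among 21 TFEB relatives and autophagy genes 6 rose and 3 fell. Rragd, a GTPase of the lysosomal nutrient sensor, was at 7.09, 7.09, 6.72 and 6.94 in Npc1-/- livers, against 5.08, 4.88, 5.08 and 5.40 in Npc1+/+ livers (log2 difference 1.85 ± 0.14, adjusted p = 2.53e-14). Tfeb itself was at 6.26, 6.33, 6.37 and 6.43 in Npc1-/- livers, against 6.23, 5.84, 6.15 and 6.50 in Npc1+/+ livers and did not pass (log2 difference 0.17 ± 0.10, adjusted p = 0.234), except without Npc1+/+ mouse 4 (0.27, adjusted p = 0.0402).

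The promoters of Lgmn, Ctsd and Gla are shown because they carry the core of the CLEAR element and belong to lysosomal genes that rose more than 2-fold. They are RefSeq sequences on GRCm38.p6, 250 bases before to 50 after a start of the gene, all on the minus strand. Where a gene had several starts, the first whose sequence held the core is shown. The core TCACGTG or its reverse complement is in capitals. Their positions are chr12:102439043-102439342 (Lgmn), chr7:142387778-142388077 (Ctsd) and chrX:134600956-134601255 (Gla).
Lgmn: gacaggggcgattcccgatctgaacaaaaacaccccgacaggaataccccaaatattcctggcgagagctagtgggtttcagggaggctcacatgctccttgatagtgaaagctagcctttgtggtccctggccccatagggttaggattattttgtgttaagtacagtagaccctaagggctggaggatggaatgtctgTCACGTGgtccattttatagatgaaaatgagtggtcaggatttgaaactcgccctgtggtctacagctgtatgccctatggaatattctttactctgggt
Ctsd: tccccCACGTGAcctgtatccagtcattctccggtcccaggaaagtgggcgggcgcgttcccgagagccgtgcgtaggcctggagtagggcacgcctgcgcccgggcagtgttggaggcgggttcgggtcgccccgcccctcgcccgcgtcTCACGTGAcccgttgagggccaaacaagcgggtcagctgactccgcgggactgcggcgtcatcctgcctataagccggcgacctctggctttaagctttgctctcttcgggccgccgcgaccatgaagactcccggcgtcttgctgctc
Gla: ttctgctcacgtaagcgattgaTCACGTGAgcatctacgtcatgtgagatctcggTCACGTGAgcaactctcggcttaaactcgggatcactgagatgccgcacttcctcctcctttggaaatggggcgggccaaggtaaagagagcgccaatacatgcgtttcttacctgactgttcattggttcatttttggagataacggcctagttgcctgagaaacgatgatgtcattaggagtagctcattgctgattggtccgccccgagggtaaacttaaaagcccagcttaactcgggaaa
On either strand this core was in the promoters of 4.29% of 27025 genes and of 6.76% of 10070 genes tested. A gene counted when any of its promoter sequences held the core. Among lysosomal genes that rose, it was in 3 of 8 cathepsins, 5 of 20 hydrolases, 3 of 10 membrane proteins and 3 of 9 proton pump subunits with a promoter sequence. Among all members tested, risen or not, it was in 3 of 11 cathepsins, 6 of 24 hydrolases, 5 of 20 membrane proteins and 4 of 10 proton pump subunits. Lgmn holds 1 stretch, and Ctsd and Gla hold 2 each. A match of letters is not evidence of binding.

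Interferon-stimulated genes code for antiviral effectors and for regulators of the interferon signal. Of 21 such genes, 16 rose and none fell, with a median difference of 0.77. Over the 22 genes of this list on the array, the mean level was 7.16 to 7.89 in Npc1-/- livers, against 6.55 to 6.78 in Npc1+/+ livers. Npc1-/- mouse 3 was the highest. Usp18, which dampens signalling at the interferon receptor, was at 8.63, 8.29, 9.12 and 8.47 in Npc1-/- livers, against 6.42, 5.95, 6.73 and 6.90 in Npc1+/+ livers (log2 difference 2.13 ± 0.21, adjusted p = 3.25e-11). Ifit1, which binds foreign RNA, was at 6.88, 6.56, 7.83 and 6.88 in Npc1-/- livers, against 5.73, 5.50, 6.00 and 5.36 in Npc1+/+ livers (log2 difference 1.39 ± 0.26, adjusted p = 4.74e-05). Ifit3 was at 7.13, 6.76, 7.62 and 6.72 in Npc1-/- livers, against 6.08, 5.54, 5.83 and 5.78 in Npc1+/+ livers (log2 difference 1.25 ± 0.25, adjusted p = 0.000147). Rsad2, or viperin, an antiviral enzyme, was at 7.24, 7.01, 7.86 and 7.19 in Npc1-/- livers, against 6.17, 6.28, 6.31 and 6.06 in Npc1+/+ livers (log2 difference 1.12 ± 0.19, adjusted p = 1.21e-05). In the 4 genes mouse 3 had the highest value of the Npc1-/- livers, and the other 3 still lay above every Npc1+/+ liver. Irf7, a transcription factor that amplifies interferon production, was at 8.46, 8.31, 8.76 and 8.15 in Npc1-/- livers, against 7.62, 7.37, 7.49 and 7.39 in Npc1+/+ livers (log2 difference 0.95 ± 0.15, adjusted p = 4.15e-06). Oas1a, a sensor of double-stranded RNA, overlapped and did not pass, at 6.64, 6.20, 7.09 and 6.66 in Npc1-/- livers, against 6.03, 6.26, 6.38 and 6.39 in Npc1+/+ livers (log2 difference 0.38 ± 0.21, adjusted p = 0.186).

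The promoters of Ifit1, Ifit3 and Rsad2 are shown for the core of the interferon-stimulated response element (ISRE), the site bound by interferon-activated factors. The sequences are again RefSeq, GRCm38.p6, over the same window and picked by the same rule. GAAA, any 2 letters and GAAA again, or the reverse complement of this run, is in capitals. They lie at chr19:34640639-34640938 (Ifit1, plus strand), chr19:34583279-34583578 (Ifit3, plus strand) and chr12:26456403-26456702 (Rsad2, minus strand).
Ifit1: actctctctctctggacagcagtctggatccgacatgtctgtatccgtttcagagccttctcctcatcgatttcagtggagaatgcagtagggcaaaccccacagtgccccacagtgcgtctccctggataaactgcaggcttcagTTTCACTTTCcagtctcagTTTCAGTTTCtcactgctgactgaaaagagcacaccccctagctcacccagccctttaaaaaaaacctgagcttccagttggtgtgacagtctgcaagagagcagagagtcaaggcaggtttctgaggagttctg
Ifit3: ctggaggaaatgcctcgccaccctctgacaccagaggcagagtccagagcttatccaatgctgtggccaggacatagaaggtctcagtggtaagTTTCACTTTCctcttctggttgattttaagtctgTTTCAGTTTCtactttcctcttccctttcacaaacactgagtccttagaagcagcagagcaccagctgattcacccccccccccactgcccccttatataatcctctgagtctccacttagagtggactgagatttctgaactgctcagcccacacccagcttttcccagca
Rsad2: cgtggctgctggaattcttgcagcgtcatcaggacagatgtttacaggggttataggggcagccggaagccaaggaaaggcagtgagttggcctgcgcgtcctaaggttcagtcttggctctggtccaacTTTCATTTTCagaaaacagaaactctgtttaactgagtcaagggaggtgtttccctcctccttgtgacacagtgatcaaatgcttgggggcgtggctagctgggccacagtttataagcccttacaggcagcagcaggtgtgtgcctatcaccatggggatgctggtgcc
On either strand, the core was in a promoter of 3.99% of 27025 genes and of 3.61% of 10070 genes tested, with genes counted as before. Of the interferon genes that rose, 6 of 11 with a promoter sequence held it, and of all those tested 10 of 15 did. Ifit1 and Ifit3 each hold the same 2 stretches, and Rsad2 holds 1.

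Many genes that sense or signal infection also rose. Among TNF, interleukin-1 and Toll receptor genes, 15 of 19 rose and 1 fell. Tlr13, a receptor for bacterial ribosomal RNA, was at 7.63, 7.65, 7.20 and 7.41 in Npc1-/- livers, against 5.49, 5.08, 5.59 and 5.49 in Npc1+/+ livers (log2 difference 2.06 ± 0.15, adjusted p = 2.27e-15), and the single decrease was the cytokine Il18 at 6.40, 7.00, 6.60 and 6.50 in Npc1-/- livers, against 6.79, 7.07, 7.27 and 7.08 in Npc1+/+ livers (log2 difference -0.43 ± 0.13, adjusted p = 0.00854). Il18 did not pass without Npc1-/- mouse 1 (adjusted p = 0.0533) or Npc1+/+ mouse 3 (adjusted p = 0.0519). Chemokines and their receptors rose for 7 of 14. Cxcr4 was at 7.54, 7.60, 7.63 and 7.91 in Npc1-/- livers, against 5.69, 5.59, 5.46 and 5.06 in Npc1+/+ livers (log2 difference 2.22 ± 0.15, adjusted p = 5.44e-16), and the interferon-induced Cxcl10 was at 7.00, 7.21, 8.14 and 7.08 in Npc1-/- livers, against 5.86, 5.97, 6.20 and 6.00 in Npc1+/+ livers (log2 difference 1.35 ± 0.22, adjusted p = 5.59e-06), again with mouse 3 the highest. Ccl24, or eotaxin-2, was the chemokine that fell, at 5.46, 5.51, 5.59 and 5.27 in Npc1-/- livers, against 6.00, 6.49, 6.50 and 6.16 in Npc1+/+ livers (log2 difference -0.83 ± 0.14, adjusted p = 6e-06).

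The superoxide-producing oxidase of phagocytes and the defence against oxidants both held genes that rose. Of 9 genes of the oxidase and of superoxide removal 5 rose and 2 fell. The membrane subunits of the oxidase rose, with Cybb at 9.46, 9.20, 9.16 and 9.04 in Npc1-/- livers, against 7.13, 6.98, 7.26 and 7.28 in Npc1+/+ livers (log2 difference 2.05 ± 0.13, adjusted p = 1.39e-16) and Cyba at 10.16, 9.92, 10.03 and 10.01 in Npc1-/- livers, against 7.35, 7.50, 7.44 and 7.46 in Npc1+/+ livers (log2 difference 2.59 ± 0.10, adjusted p = 5.63e-24). The decreases were the antioxidant enzymes catalase (Cat) and mitochondrial superoxide dismutase (Sod2), with differences of -0.35 ± 0.07 and -0.35 ± 0.08. Of 15 targets of the oxidant-responsive factor Nrf2, 8 rose and none fell. Srxn1, which restores oxidised peroxiredoxins, was at 8.77, 8.82, 9.40 and 8.99 in Npc1-/- livers, against 7.26, 7.49, 7.74 and 7.58 in Npc1+/+ livers (log2 difference 1.48 ± 0.17, adjusted p = 1.31e-09). Hmox1, the haem-degrading enzyme, was at 8.57, 8.43, 8.39 and 8.40 in Npc1-/- livers, against 6.75, 7.30, 7.09 and 7.14 in Npc1+/+ livers (log2 difference 1.38 ± 0.12, adjusted p = 1.85e-12). Gclc and Gclm, the subunits of the rate-limiting enzyme of glutathione synthesis, did not pass, with differences of -0.00 ± 0.16 and -0.19 ± 0.11.

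Immediate early genes rose for 10 of 19, with none lower. Atf3, a stress-induced repressor, was at 8.73, 8.69, 8.58 and 8.68 in Npc1-/- livers, against 6.09, 5.93, 5.99 and 5.68 in Npc1+/+ livers (log2 difference 2.75 ± 0.19, adjusted p = 1.31e-15). Jun, a subunit of AP-1, was at 7.84, 8.27, 8.37 and 8.52 in Npc1-/- livers, against 6.45, 6.75, 6.44 and 6.70 in Npc1+/+ livers (log2 difference 1.66 ± 0.22, adjusted p = 4.79e-08). Fos, its usual partner, did not pass (log2 difference 0.11 ± 0.16, adjusted p = 0.703). Gadd45b, a stress and growth arrest gene, was at 8.39, 8.25, 7.93 and 8.37 in Npc1-/- livers, against 6.55, 6.78, 5.97 and 6.76 in Npc1+/+ livers (log2 difference 1.72 ± 0.32, adjusted p = 4.85e-05). Ccnd1, the cyclin of entry into the cell cycle, was at 10.18, 9.86, 10.64 and 9.54 in Npc1-/- livers, against 8.93, 8.26, 8.64 and 8.34 in Npc1+/+ livers (log2 difference 1.51 ± 0.26, adjusted p = 1.19e-05), and in all 5 of 24 cell cycle genes rose and 1 fell. That count of increases was 3 without Npc1-/- mouse 1 or 3. Over all genes tested, 14.3% rose and 11.0% fell. Mki67, a marker of dividing cells, was at 5.38, 5.17, 5.71 and 5.48 in Npc1-/- livers, against 5.26, 5.75, 5.38 and 5.29 in Npc1+/+ livers and did not pass (log2 difference 0.01 ± 0.16, adjusted p = 0.972).

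Matrix genes rose moderately. Of 20 collagens, matrix proteases and their inhibitors, 12 rose and none fell, with a median difference of 0.32. Col1a1, the main chain of scar collagen, was at 8.52, 8.34, 8.94 and 8.44 in Npc1-/- livers, against 7.68, 7.77, 7.59 and 7.58 in Npc1+/+ livers (log2 difference 0.90 ± 0.14, adjusted p = 1.07e-06). Timp2, an inhibitor of matrix metalloproteinases, was at 8.38, 8.07, 8.15 and 8.20 in Npc1-/- livers, against 6.50, 6.56, 6.55 and 6.59 in Npc1+/+ livers (log2 difference 1.65 ± 0.10, adjusted p = 1.64e-17). Stellate cells store retinoid and make collagen after injury, and 8 of 16 of their genes rose. Vim, a filament protein that macrophages also express, was at 10.80, 10.54, 10.61 and 10.70 in Npc1-/- livers, against 8.53, 8.55, 8.46 and 8.67 in Npc1+/+ livers (log2 difference 2.11 ± 0.11, adjusted p = 1.41e-19). Cygb, a globin of stellate cells, was at 8.28, 8.34, 8.36 and 8.28 in Npc1-/- livers, against 7.68, 7.43, 7.42 and 7.56 in Npc1+/+ livers (log2 difference 0.79 ± 0.10, adjusted p = 2.12e-08). Acta2, the smooth muscle actin of activated stellate cells, overlapped at 5.93, 6.48, 7.22 and 6.21 in Npc1-/- livers, against 6.51, 6.51, 6.83 and 6.90 in Npc1+/+ livers and did not pass (log2 difference -0.23 ± 0.34, adjusted p = 0.701). Tgfb1, a cytokine that drives collagen production, was at 7.52, 7.60, 7.32 and 7.47 in Npc1-/- livers, against 6.25, 6.55, 6.57 and 6.55 in Npc1+/+ livers (log2 difference 1.00 ± 0.09, adjusted p = 8.49e-12).

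Sinusoidal endothelial genes ran mostly lower, with 6 of 17 fallen and 1 risen. Tek, the angiopoietin receptor, was at 6.53, 6.60, 6.76 and 6.42 in Npc1-/- livers, against 7.16, 7.16, 7.36 and 7.51 in Npc1+/+ livers (log2 difference -0.72 ± 0.10, adjusted p = 6.79e-08). Kdr, a VEGF receptor, was at 8.12, 7.99, 7.90 and 7.83 in Npc1-/- livers, against 8.44, 8.48, 8.55 and 8.72 in Npc1+/+ livers (log2 difference -0.59 ± 0.12, adjusted p = 0.000156). Lyve1, the hyaluronan receptor, was the gene that rose, at 7.32, 6.46, 7.30 and 7.31 in Npc1-/- livers, against 6.24, 6.69, 6.45 and 7.12 in Npc1+/+ livers (log2 difference 0.47 ± 0.16, adjusted p = 0.0281), and it no longer passed without Npc1-/- mouse 1, 3 or 4 or Npc1+/+ mouse 1 or 3 (adjusted p 0.09245 to 0.143), nor after quantile normalization (adjusted p = 0.0684) or centring (adjusted p = 0.0777). Stab2, a scavenger receptor of these cells, did not pass (log2 difference -0.21 ± 0.08, adjusted p = 0.0601). It passed, as lower in Npc1-/- livers, without Npc1+/+ mouse 3 (-0.29, adjusted p = 0.0106), after centring (-0.29, adjusted p = 0.00994) and with all arrays of the series (-0.21, adjusted p = 0.0327). In the bile duct list 1 of 9 rose, Cldn7 (0.28 ± 0.10), which did not pass without Npc1-/- mouse 1 or 2 or Npc1+/+ mouse 3 or 4 (adjusted p 0.0631 to 0.114), and after centring none rose and 2 fell. Krt19, a keratin of bile duct cells, was at 5.52, 5.33, 5.37 and 5.12 in Npc1-/- livers, against 5.42, 5.53, 5.57 and 5.77 in Npc1+/+ livers (log2 difference -0.24 ± 0.11, adjusted p = 0.13) and passed only after centring (-0.32, adjusted p = 0.0241).

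**Figure D2:**
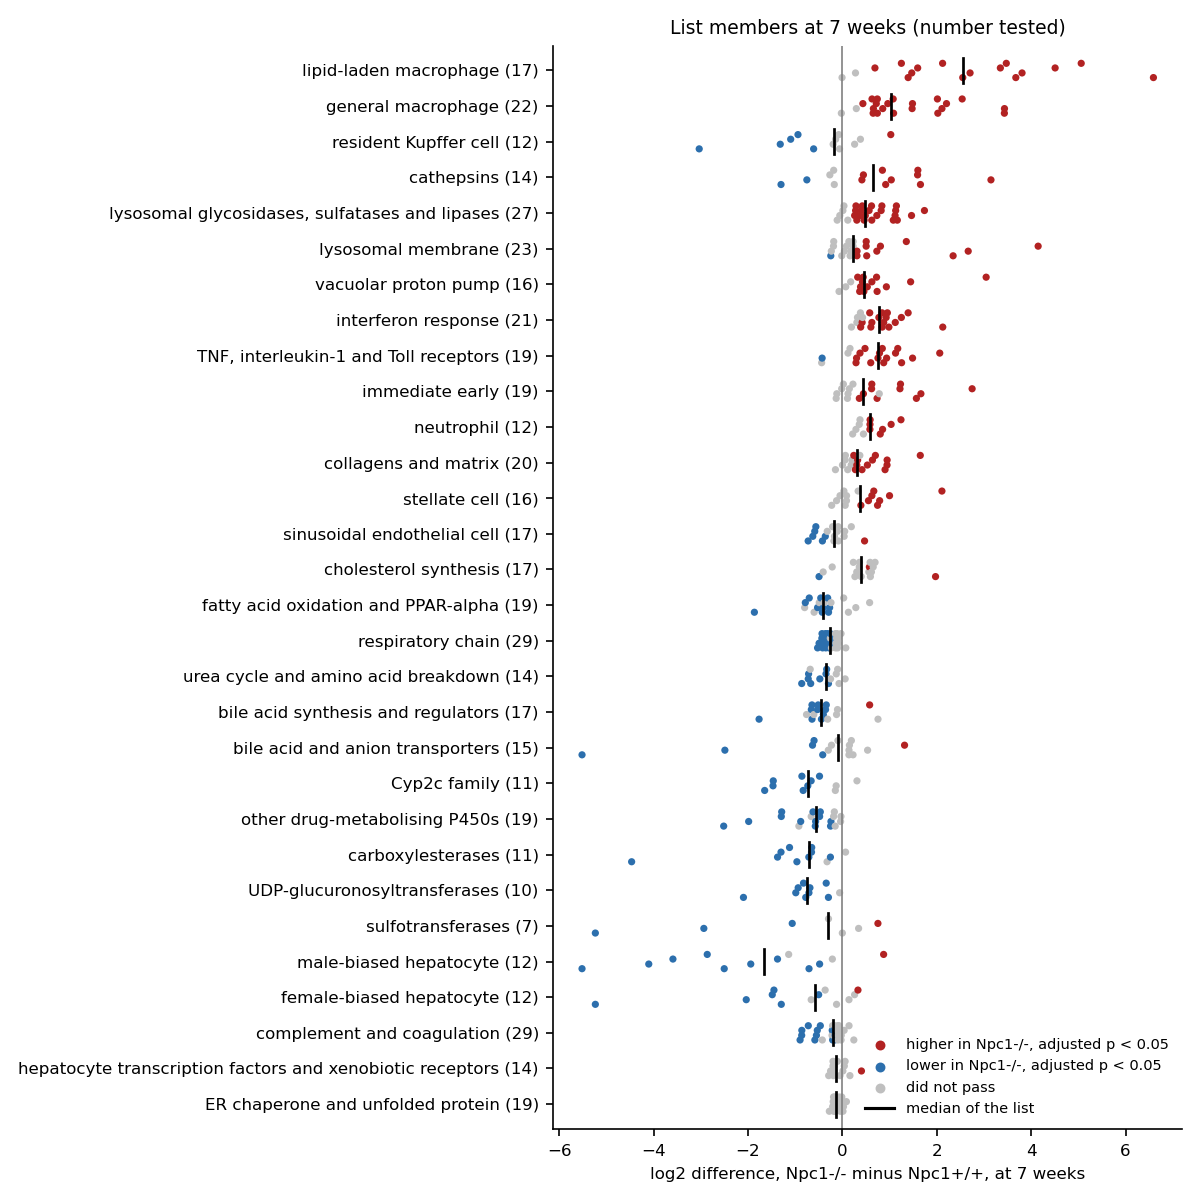
Log2 differences, Npc1-/- minus Npc1+/+ at 7 weeks, of the members of selected gene lists, each point 1 gene and each vertical mark the list's median. Red points rose and blue points fell by the adjusted p threshold, and grey points did not pass; lipid-laden macrophage genes reach a median of 2.55, and male-biased hepatocyte genes a median of -1.66.

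Cholesterol synthesis is controlled by SREBP-2, which is activated when cholesterol in the endoplasmic reticulum is low. Of 17 enzymes of the pathway 2 rose and 1 fell, beside 14.3% and 11.0% of all genes tested, although the median difference was 0.40. Sqle, squalene epoxidase, was at 9.53, 9.46, 10.13 and 8.81 in Npc1-/- livers, against 6.14, 7.89, 8.83 and 7.17 in Npc1+/+ livers (log2 difference 1.97 ± 0.36, adjusted p = 3.54e-05). The Npc1+/+ livers spread over more than 2 log2 units in this gene, and their highest value exceeded the lowest Npc1-/- value. Mvd, of the mevalonate pathway, was at 7.65, 7.65, 8.59 and 7.04 in Npc1-/- livers, against 6.88, 7.23, 7.84 and 6.68 in Npc1+/+ livers and passed narrowly (log2 difference 0.57 ± 0.22, adjusted p = 0.0484), and it did not pass without Npc1-/- mouse 1, 2 or 3 or Npc1+/+ mouse 1, 2 or 4 (adjusted p 0.0633 to 0.3775), nor after quantile normalization (adjusted p = 0.0630) or centring (adjusted p = 0.0809). Ebp, a late enzyme that moves a double bond of the sterol ring, was at 10.08, 10.07, 10.48 and 10.07 in Npc1-/- livers, against 10.38, 10.79, 10.86 and 10.65 in Npc1+/+ livers (log2 difference -0.49 ± 0.12, adjusted p = 0.00156). Hmgcs1, an early enzyme of the pathway, was at 10.93, 10.87, 11.24 and 10.60 in Npc1-/- livers, against 9.27, 10.85, 11.01 and 10.26 in Npc1+/+ livers and did not pass (log2 difference 0.56 ± 0.27, adjusted p = 0.129), except without Npc1+/+ mouse 3 (0.78, adjusted p = 0.0393) or after quantile normalization (0.72, adjusted p = 0.0340). Over the list, levels were 9.12 to 9.86 in Npc1-/- livers, against 8.38 to 9.69 in Npc1+/+ livers. The number of enzymes that rose was 10 without Npc1+/+ mouse 3, 6 without Npc1-/- mouse 4 and 1 without Npc1-/- mouse 1, 2 or 3 or Npc1+/+ mouse 1 or 4. After quantile normalization 5 rose, and after centring 1 rose and 2 fell. Srebf2, which encodes SREBP-2, was at 8.56, 8.51, 8.59 and 8.37 in Npc1-/- livers, against 7.78, 8.18, 8.30 and 7.96 in Npc1+/+ livers (log2 difference 0.45 ± 0.11, adjusted p = 0.00198).

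Genes of the oxysterol receptor LXR and of sterol export went both ways. Of 10, 2 rose and 4 fell, with 2 lower without Npc1-/- mouse 3. Abcg1, a macrophage cholesterol exporter, was at 8.87, 8.60, 8.60 and 8.48 in Npc1-/- livers, against 7.04, 6.98, 6.92 and 7.13 in Npc1+/+ livers (log2 difference 1.62 ± 0.10, adjusted p = 3.41e-17), while Abcg8, of the transporter that exports sterols into bile, was at 8.92, 9.35, 8.46 and 8.55 in Npc1-/- livers, against 9.50, 9.42, 9.68 and 9.81 in Npc1+/+ livers (log2 difference -0.79 ± 0.16, adjusted p = 0.000228). Abca1, the exporter that loads HDL, was at 9.87, 9.72, 9.72 and 9.51 in Npc1-/- livers, against 9.90, 9.67, 10.08 and 9.69 in Npc1+/+ livers and did not pass (log2 difference -0.13 ± 0.10, adjusted p = 0.374). Among lipoprotein genes, Lpl, lipoprotein lipase, which the adult hepatocyte makes little of, was at 10.16, 10.10, 9.98 and 10.17 in Npc1-/- livers, against 5.99, 6.64, 6.54 and 6.48 in Npc1+/+ livers (log2 difference 3.68 ± 0.21, adjusted p = 8.29e-19, 12.9-fold). Pltp, the phospholipid transfer protein, was at 9.31, 9.17, 9.02 and 9.08 in Npc1-/- livers, against 7.84, 8.07, 7.92 and 8.27 in Npc1+/+ livers (log2 difference 1.12 ± 0.13, adjusted p = 7.42e-09). Apoa4 was at 11.76, 11.63, 11.96 and 11.75 in Npc1-/- livers, against 10.56, 10.43, 11.18 and 11.21 in Npc1+/+ livers (log2 difference 0.93 ± 0.22, adjusted p = 0.000938). Mttp, which loads lipid onto apolipoprotein B, fell (log2 difference -0.48 ± 0.10, adjusted p = 0.00014). Apob itself and Apoe did not pass, with differences of -0.08 ± 0.06 and 0.10 ± 0.07. In lipid droplets, the coat protein Plin4 was at 8.01, 7.69, 7.17 and 7.77 in Npc1-/- livers, against 6.80, 6.50, 5.82 and 7.14 in Npc1+/+ livers (log2 difference 1.09 ± 0.28, adjusted p = 0.00219) and Fitm1, a droplet-forming protein, was at 5.72, 5.88, 5.91 and 5.81 in Npc1-/- livers, against 6.78, 7.40, 7.67 and 7.59 in Npc1+/+ livers (log2 difference -1.53 ± 0.25, adjusted p = 6e-06). Plin2, the main droplet coat of hepatocytes, did not pass (log2 difference -0.22 ± 0.18, adjusted p = 0.42).

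Hepatocytes turn cholesterol into bile acids by a classical route that Cyp7a1 starts and an acidic route that Cyp27a1 and Cyp7b1 carry. Of 17 genes of synthesis and its control, 10 fell and 1 rose, with a median difference of -0.44. Cyp7b1 was at 6.69, 7.27, 6.97 and 7.41 in Npc1-/- livers, against 8.38, 8.51, 9.43 and 9.08 in Npc1+/+ livers (log2 difference -1.76 ± 0.18, adjusted p = 1.98e-10). Cyp27a1 was at 10.51, 10.81, 10.55 and 10.73 in Npc1-/- livers, against 11.00, 11.32, 11.41 and 11.46 in Npc1+/+ livers (log2 difference -0.64 ± 0.12, adjusted p = 3e-05). Neither gene's groups overlapped. Cyp39a1, another oxysterol hydroxylase, was the gene that rose, at 7.71, 7.64, 7.90 and 8.11 in Npc1-/- livers, against 6.84, 7.61, 7.26 and 7.34 in Npc1+/+ livers (log2 difference 0.58 ± 0.21, adjusted p = 0.0412). It did not pass without Npc1-/- mouse 3 or 4 or Npc1+/+ mouse 1, 3 or 4 (adjusted p 0.0588 to 0.1625), nor after quantile normalization (adjusted p = 0.0664) or centring (adjusted p = 0.0902). Cyp7a1 varied widely within both genotypes, at 9.60, 9.89, 10.53 and 8.82 in Npc1-/- livers, against 10.48, 8.45, 9.56 and 7.33 in Npc1+/+ livers, and did not pass (log2 difference 0.75 ± 0.52, adjusted p = 0.327).

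Transporters that bring bile acids and drugs into the hepatocyte or pass them into bile fell for 5 of 15, and 1 rose. After quantile normalization 4 rose and 5 fell, and 2 rose without Npc1-/- mouse 4 or Npc1+/+ mouse 1. Beside Slco1a1, Slc22a7, an organic anion transporter, was at 6.78, 6.60, 7.05 and 6.93 in Npc1-/- livers, against 9.15, 9.09, 9.67 and 9.41 in Npc1+/+ livers (log2 difference -2.49 ± 0.18, adjusted p = 2.18e-15). Slc10a1, the sodium-dependent bile acid importer, was at 11.69, 11.79, 11.63 and 11.57 in Npc1-/- livers, against 12.05, 12.03, 12.18 and 12.09 in Npc1+/+ livers (log2 difference -0.42 ± 0.09, adjusted p = 0.00045). Abcb11, the bile salt export pump, was at 11.33, 11.23, 11.26 and 11.44 in Npc1-/- livers, against 11.70, 11.99, 12.03 and 11.94 in Npc1+/+ livers (log2 difference -0.60 ± 0.16, adjusted p = 0.00376). Abcc4, which exports bile acids back to blood, was the one that rose, at 7.74, 7.73, 7.38 and 7.03 in Npc1-/- livers, against 6.14, 6.10, 6.14 and 6.24 in Npc1+/+ livers (log2 difference 1.32 ± 0.16, adjusted p = 7.13e-09). Each of these 4 separated the genotypes with no overlap.

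Enzymes of drug and steroid metabolism fell in several families. Lower in Npc1-/- livers were 8 of 11 Cyp2c genes, 12 of 19 other cytochrome P450 genes, 9 of 11 carboxylesterases and 9 of 10 UDP-glucuronosyltransferases, with none higher in any of the 4 families. The median differences were -0.73, -0.57, -0.71 and -0.74 in the same order. Cyp2c54 was at 8.47, 9.12, 8.71 and 9.02 in Npc1-/- livers, against 10.21, 10.56, 10.62 and 10.51 in Npc1+/+ livers (log2 difference -1.65 ± 0.23, adjusted p = 1.81e-07). Cyp2b10, an inducible P450, was at 7.90, 7.95, 7.82 and 8.17 in Npc1-/- livers, against 9.05, 9.98, 10.35 and 10.41 in Npc1+/+ livers (log2 difference -1.99 ± 0.47, adjusted p = 0.00118). Ces2a was at 9.67, 9.58, 9.33 and 9.03 in Npc1-/- livers, against 10.72, 10.53, 10.89 and 10.98 in Npc1+/+ livers (log2 difference -1.37 ± 0.17, adjusted p = 8.05e-09), and Ugt3a1 at 7.64, 7.98, 7.50 and 7.92 in Npc1-/- livers, against 9.55, 9.81, 9.98 and 10.10 in Npc1+/+ livers (log2 difference -2.10 ± 0.20, adjusted p = 1.24e-11). These families hold near-identical copies, so that part of a gene's signal may come from its neighbours. Some abundant members did not pass. Cyp3a11, a main drug-oxidising P450, was at 11.46, 11.52, 11.39 and 11.34 in Npc1-/- livers, against 11.51, 11.46, 11.36 and 11.53 in Npc1+/+ livers (log2 difference -0.04 ± 0.13, adjusted p = 0.884). Cyp2e1, which oxidises ethanol, was at 13.11, 13.19, 12.99 and 13.13 in Npc1-/- livers, against 13.31, 13.24, 13.22 and 13.26 in Npc1+/+ livers (log2 difference -0.15 ± 0.07, adjusted p = 0.133). Cyp2e1 passed as lower after quantile normalization (-0.19, adjusted p = 0.0118) and after centring (-0.23, adjusted p = 0.01695). In the sulfotransferases 3 of 7 fell and 1 rose. Sult2a8, a bile acid sulfotransferase of mouse liver, was at 7.74, 8.16, 7.70 and 8.30 in Npc1-/- livers, against 10.82, 10.72, 11.13 and 10.97 in Npc1+/+ livers (log2 difference -2.93 ± 0.25, adjusted p = 5.25e-13). Sult1c2 was at 7.88, 8.11, 7.65 and 7.52 in Npc1-/- livers, against 7.10, 6.88, 7.02 and 7.13 in Npc1+/+ livers (log2 difference 0.75 ± 0.20, adjusted p = 0.00364).

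Many of the genes that fell furthest differ between male and female liver, under control of the pulse pattern of growth hormone. All mice here were female, yet 9 of 12 male-biased genes fell and 1 rose, with a median difference of -1.66. Elovl3, a fatty acid elongase, was at 3.83, 3.60, 3.98 and 3.74 in Npc1-/- livers, against 5.25, 6.47, 6.63 and 8.24 in Npc1+/+ livers (log2 difference -2.86 ± 0.40, adjusted p = 2.15e-07), with the Npc1+/+ livers spread over nearly 3 log2 units. Hsd3b5, a steroid dehydrogenase, was at 3.83, 4.26, 3.75 and 3.41 in Npc1-/- livers, against 5.91, 5.09, 7.81 and 6.45 in Npc1+/+ livers (log2 difference -2.50 ± 0.41, adjusted p = 5.99e-06). Of 12 female-biased genes 6 fell and 1 rose, with a median of -0.58. Hao2, a peroxisomal oxidase, was at 8.02, 8.22, 8.00 and 7.85 in Npc1-/- livers, against 9.19, 9.62, 9.69 and 9.38 in Npc1+/+ livers (log2 difference -1.45 ± 0.17, adjusted p = 3.34e-09). A1bg, a secreted glycoprotein, was at 4.95, 4.48, 5.67 and 4.85 in Npc1-/- livers, against 6.81, 6.71, 8.04 and 6.55 in Npc1+/+ livers (log2 difference -2.04 ± 0.40, adjusted p = 9.15e-05). Cux2, a repressor found in female liver, did not pass (log2 difference -0.12 ± 0.21, adjusted p = 0.741).

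In the growth hormone axis 5 of 14 genes fell and 2 rose. Igf1, which growth hormone induces in the liver, was at 10.12, 10.23, 10.27 and 9.57 in Npc1-/- livers, against 10.81, 10.59, 11.02 and 10.68 in Npc1+/+ livers (log2 difference -0.73 ± 0.11, adjusted p = 1.16e-06). Igfals, the protein that keeps IGF-1 in the circulation, was at 8.46, 8.81, 8.85 and 7.95 in Npc1-/- livers, against 9.65, 9.44, 10.03 and 9.21 in Npc1+/+ livers (log2 difference -1.07 ± 0.20, adjusted p = 3.37e-05). Egfr, the epidermal growth factor receptor, was at 7.36, 7.67, 8.56 and 8.10 in Npc1-/- livers, against 9.10, 8.95, 10.52 and 9.12 in Npc1+/+ livers (log2 difference -1.50 ± 0.29, adjusted p = 6.4e-05). Ghr, the growth hormone receptor, was at 10.64, 10.71, 10.50 and 10.47 in Npc1-/- livers, against 11.06, 10.95, 11.08 and 11.06 in Npc1+/+ livers (log2 difference -0.46 ± 0.11, adjusted p = 0.00168), and its adjusted p was 0.0597 after quantile normalization. Igfbp1, an IGF-binding protein induced by fasting, was at 10.94, 10.77, 8.20 and 11.35 in Npc1-/- livers, against 8.21, 9.30, 7.83 and 8.05 in Npc1+/+ livers (log2 difference 1.96 ± 0.45, adjusted p = 0.000684), where Npc1-/- mouse 3 lay among the Npc1+/+ livers and the other 3 lay above them.

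Genes that burn fatty acids fell or did not pass. Of 19 genes of oxidation and of the fasting-responsive receptor PPAR-alpha, 10 fell and none rose, with a median difference of -0.40. The count was 6 without Npc1+/+ mouse 4 and 5 after quantile normalization. Cpt2, which brings acyl groups into the mitochondrion, was at 8.90, 9.05, 9.05 and 9.56 in Npc1-/- livers, against 9.81, 9.80, 9.93 and 10.16 in Npc1+/+ livers (log2 difference -0.79 ± 0.12, adjusted p = 6.48e-07), and its partner carrier Slc25a20 was at 9.36, 9.39, 9.17 and 9.66 in Npc1-/- livers, against 10.02, 9.86, 9.97 and 10.53 in Npc1+/+ livers (log2 difference -0.70 ± 0.13, adjusted p = 3.01e-05). Ppara, the receptor itself, was at 10.02, 10.14, 9.52 and 9.87 in Npc1-/- livers, against 10.44, 9.80, 9.90 and 10.38 in Npc1+/+ livers and did not pass (log2 difference -0.24 ± 0.18, adjusted p = 0.382). In fatty acid synthesis 2 of 17 rose and 4 fell. Scd2, a desaturase, was at 6.98, 7.13, 7.08 and 6.71 in Npc1-/- livers, against 5.91, 6.13, 6.30 and 6.12 in Npc1+/+ livers (log2 difference 0.86 ± 0.18, adjusted p = 0.000175). Me1, malic enzyme, was at 9.81, 9.90, 10.17 and 9.53 in Npc1-/- livers, against 10.31, 10.66, 10.87 and 10.88 in Npc1+/+ livers (log2 difference -0.83 ± 0.18, adjusted p = 0.000349). Srebf1, the factor that drives the pathway, was at 9.64, 9.87, 9.57 and 8.35 in Npc1-/- livers, against 10.34, 9.32, 10.80 and 10.15 in Npc1+/+ livers (log2 difference -0.80 ± 0.27, adjusted p = 0.022), and it did not pass without Npc1-/- mouse 4 (-0.46, adjusted p = 0.210), Npc1+/+ mouse 1 (-0.73, adjusted p = 0.0560) or Npc1+/+ mouse 3 (-0.58, adjusted p = 0.140). Fasn, fatty acid synthase, did not pass (log2 difference 0.20 ± 0.28, adjusted p = 0.674).

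Of 29 subunits of the mitochondrial respiratory chain, 17 fell and none rose, by small amounts, with a median difference of -0.26. That count was 10 after quantile normalization. Ndufb5, a subunit of complex I, was at 9.43, 9.46, 9.39 and 9.33 in Npc1-/- livers, against 9.63, 9.94, 9.998 and 10.14 in Npc1+/+ livers (log2 difference -0.53 ± 0.10, adjusted p = 4.35e-05). In the urea cycle and amino acid breakdown 8 of 14 fell and none rose. Otc, which makes citrulline, was at 9.60, 9.92, 9.73 and 9.92 in Npc1-/- livers, against 10.46, 10.53, 10.83 and 10.79 in Npc1+/+ livers (log2 difference -0.86 ± 0.10, adjusted p = 8.23e-09), while Cps1, which makes its substrate, did not pass (log2 difference -0.07 ± 0.10, adjusted p = 0.681). Isozymes of glycolysis found mainly outside hepatocytes rose for 7 of 15, among them Hk3, a hexokinase of myeloid cells, at 7.47, 7.33, 7.02 and 7.50 in Npc1-/- livers, against 5.86, 5.74, 5.83 and 5.70 in Npc1+/+ livers (log2 difference 1.55 ± 0.10, adjusted p = 3.41e-17).

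Proteins the liver secretes into plasma divided by kind. Acute phase genes rose for 6 of 21 and fell for 5. Lcn2, an iron-siderophore binding protein, was at 10.44, 10.11, 10.69 and 10.48 in Npc1-/- livers, against 8.80, 8.09, 8.28 and 8.62 in Npc1+/+ livers (log2 difference 1.98 ± 0.31, adjusted p = 1.98e-06). Saa2, a serum amyloid A, was at 9.04, 8.85, 9.06 and 8.89 in Npc1-/- livers, against 8.19, 7.43, 7.27 and 7.49 in Npc1+/+ livers (log2 difference 1.37 ± 0.28, adjusted p = 0.000226). Saa4, the serum amyloid A made without inflammation, was at 9.38, 9.50, 9.50 and 9.41 in Npc1-/- livers, against 10.41, 10.34, 10.50 and 11.07 in Npc1+/+ livers (log2 difference -1.13 ± 0.19, adjusted p = 5.57e-06). Orm3, an orosomucoid, was at 5.69, 6.03, 5.48 and 4.79 in Npc1-/- livers, against 6.87, 6.14, 6.40 and 6.54 in Npc1+/+ livers (log2 difference -0.99 ± 0.25, adjusted p = 0.00249). Complement and coagulation genes fell for 13 of 29 with none higher, and for 8 after quantile normalization. C9, of the membrane attack complex, was at 9.09, 9.17, 8.82 and 8.81 in Npc1-/- livers, against 10.03, 9.35, 10.10 and 9.85 in Npc1+/+ livers (log2 difference -0.86 ± 0.23, adjusted p = 0.00321). Serpina1c, an alpha-1-antitrypsin of mice with close copies, was at 10.83, 11.17, 11.40 and 11.57 in Npc1-/- livers, against 12.20, 12.31, 12.43 and 12.25 in Npc1+/+ livers (log2 difference -1.06 ± 0.18, adjusted p = 1.55e-05). In iron handling, Tfrc, the transferrin receptor, was at 8.34, 8.44, 8.64 and 8.24 in Npc1-/- livers, against 7.33, 7.20, 7.88 and 6.75 in Npc1+/+ livers (log2 difference 1.12 ± 0.29, adjusted p = 0.00245). Tfr2, its sensor relative, fell (log2 difference -0.60 ± 0.07, adjusted p = 1.49e-08).

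Of 14 transcription factors that define hepatocytes or sense drugs and bile acids, 1 rose and none fell. Foxa3, the one that rose (log2 difference 0.40 ± 0.14, adjusted p = 0.0304), did not pass without Npc1-/- mouse 3 or Npc1+/+ mouse 2, 3 or 4 (adjusted p 0.0668 to 0.178), and after centring none rose and 3 fell. Hnf4a was at 10.14, 10.05, 10.26 and 10.13 in Npc1-/- livers, against 10.39, 10.19, 10.25 and 10.54 in Npc1+/+ livers (log2 difference -0.20 ± 0.10, adjusted p = 0.164) and passed only after centring (-0.28, adjusted p = 0.0477). Nr1i3, the receptor CAR that induces Cyp2b10, did not pass (log2 difference -0.17 ± 0.21, adjusted p = 0.621). Retinoid-handling genes fell for 6 of 15 with none higher, Adh4, an alcohol dehydrogenase that oxidises retinol, furthest, at 9.85, 10.10, 9.68 and 9.73 in Npc1-/- livers, against 11.15, 11.24, 11.67 and 11.00 in Npc1+/+ livers (log2 difference -1.43 ± 0.16, adjusted p = 1.62e-09). Genes of the hepatocytes around the central vein gave 1 of 14 higher and 2 lower. Those around the portal vein gave 2 of 12 higher and 5 lower. Over all genes tested, 14.3% were higher and 11.0% lower.

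None of 19 chaperones of the endoplasmic reticulum passed, although 2 fell without Npc1-/- mouse 3 and 1 without Npc1+/+ mouse 1, and their mean level was 9.57 to 10.39 in Npc1-/- livers, against 9.68 to 10.21 in Npc1+/+ livers. Hspa5, the chaperone BiP, was at 11.19, 11.22, 12.25 and 11.98 in Npc1-/- livers, against 11.19, 11.82, 11.78 and 11.80 in Npc1+/+ livers (log2 difference 0.01 ± 0.20, adjusted p = 0.976). Cytosolic heat shock genes gave 1 of 13 higher, Hspb1 (0.75 ± 0.19), and 1 lower, Hspd1 (-0.34 ± 0.09), beside 14.3% and 11.0% of all genes tested. Of these heat shock genes, 3 were lower without Npc1-/- mouse 3, without Npc1+/+ mouse 3 or after centring, and none after quantile normalization. Of 15 clock genes 1 fell. It was Nfil3, a repressor of the clock output, at 6.10, 6.26, 6.37 and 7.92 in Npc1-/- livers, against 6.91, 8.65, 7.77 and 7.37 in Npc1+/+ livers (log2 difference -1.01 ± 0.38, adjusted p = 0.047), and it did not pass without Npc1-/- mouse 1, 2 or 3 or Npc1+/+ mouse 2, 3 or 4 (adjusted p 0.0508 to 0.232). Without Npc1-/- mouse 4, 3 clock genes rose and 2 fell. The times of day at which the livers were taken are not given in the sources used here.

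**Figure D3:**
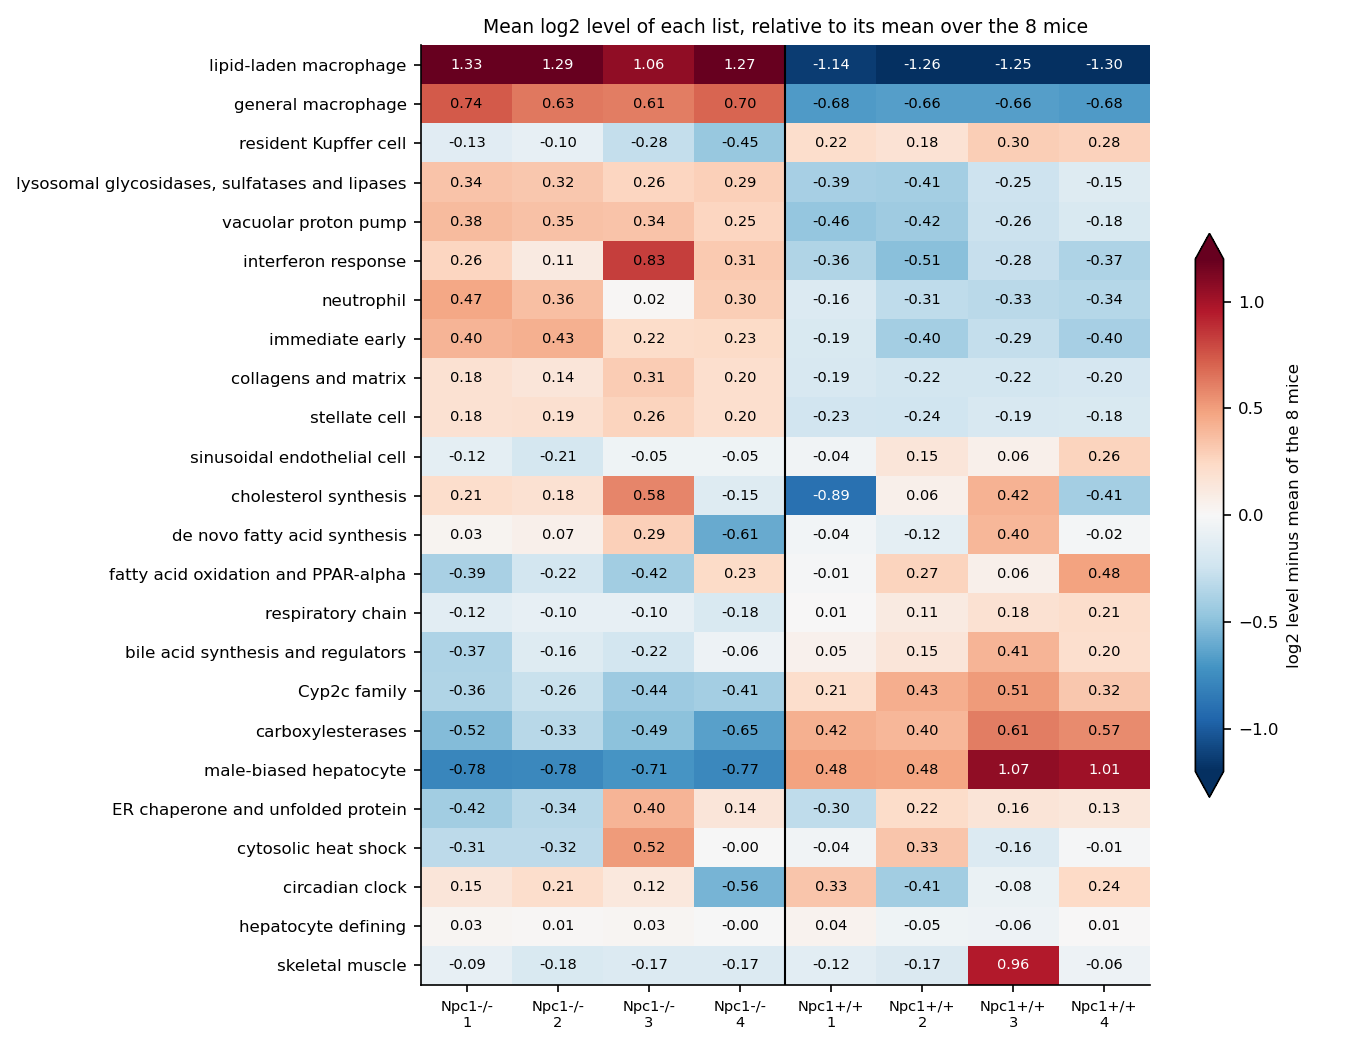
Mean log2 level of each gene list in each of the 8 livers, drawn as the difference from the mean of the list over all 8, with Npc1-/- mice 1 to 4 left and Npc1+/+ mice 1 to 4 right of the line. Lipid-laden macrophage genes run from 8.33 to 8.60 in Npc1-/- livers and from 5.97 to 6.13 in Npc1+/+ livers, whereas the endoplasmic reticulum chaperones vary within each genotype.

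The genotype difference at 7 weeks was then set against that at 5 weeks, with separate mice and separate controls at each age, by testing 1 difference minus the other. It was higher at 7 weeks for 209 genes (1.65% of those tested) and lower for 158 (1.25%). Macrophage genes were among the first kind. Of the 17 lipid-laden macrophage genes 6 were higher at 7 weeks and none lower, and of 22 general macrophage genes 8 and none. Among the 5-week Npc1-/- livers, mouse 3 was low in several of them. It was at 9.87 for Gpnmb, against 10.63 to 10.70 in the others, and at 9.03 for Cd68, against 9.65 to 9.74. For Lgals3 it was at 8.07, against 8.97 to 9.15, and for Itgax at 6.34, against 7.26 to 7.63. The list counts were not made again without that array. Gpnmb differed by 5.16 at 5 weeks, and its change between the ages was 1.43 ± 0.23, adjusted p = 0.000141 (adjusted p = 0.0793 when all 78 arrays were fitted). Il7r was at 6.20, 6.12, 5.15 and 6.15 in Npc1-/- livers, against 4.49, 4.29, 4.04 and 3.86 in Npc1+/+ livers at 5 weeks, when its difference was 1.73, and the change to 7 weeks was 1.83 ± 0.26, adjusted p = 3.32e-05. Plk3, a stress-responsive kinase, was at 8.24, 8.58, 7.54 and 8.26 in Npc1-/- livers, against 7.82, 8.04, 8.29 and 8.47 in Npc1+/+ livers at 5 weeks, with overlapping genotypes. At 7 weeks it was at 9.18, 9.26, 9.19 and 8.50 in Npc1-/- livers, against 8.26, 7.05, 7.06 and 7.44 in Npc1+/+ livers, with no overlap (change 1.58 ± 0.36, adjusted p = 0.00815).

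Hepatocyte genes were among those with a lower difference at 7 weeks. Sult3a1 was at 2.89, 2.92, 2.92 and 2.91 in Npc1-/- livers, against 5.19, 7.59, 6.46 and 5.31 in Npc1+/+ livers at 5 weeks, so the Npc1-/- livers were at the same low level at both ages, and the Npc1+/+ values lay higher at 7 weeks (change -2.0045 ± 0.35, adjusted p = 0.000434, and 0.0507 when only the arrays of those ages were fitted). Slc22a7 differed by -1.21 at 5 weeks (change -1.28 ± 0.25, adjusted p = 0.00153). Me1 differed the other way at the earlier age, at 11.01, 11.09, 11.33 and 10.93 in Npc1-/- livers, against 10.37, 10.74, 10.45 and 10.50 in Npc1+/+ livers at 5 weeks, a difference of 0.57 (change -1.40 ± 0.25, adjusted p = 0.000543). Alas1, the first enzyme of haem synthesis, differed by -1.47 at 5 weeks and did not pass at 7 weeks (log2 difference 0.44 ± 0.32, adjusted p = 0.362; change 1.91 ± 0.46, adjusted p = 0.0122), and its lowest 5-week value belonged to Npc1-/- mouse 3, at 11.72, 11.23, 8.81 and 11.26 in Npc1-/- livers, against 12.34, 12.10, 11.90 and 12.55 in Npc1+/+ livers. At 7 weeks Alas1 was at 11.56, 11.46, 12.14 and 11.01 in Npc1-/- livers, against 12.03, 11.05, 10.71 and 10.63 in Npc1+/+ livers. Both genotypes moved between the ages. The Npc1+/+ mean was 12.22 at 5 weeks and 11.10 at 7 weeks, and the Npc1-/- mean was 10.76 and 11.54. The change of Alas1 passed in each of 16 fits that left out 1 array of 5 or 7 weeks. Fitted on the arrays of 5 and 7 weeks alone, it had an adjusted p of 0.164. The median difference of the cholesterol synthesis list was 0.95 at 5 weeks and 0.40 at 7 weeks, and 3 of its 17 genes were lower at 7 weeks by the test of the change. For the interferon list the medians were 0.14 at 5 weeks and 0.77 at 7 weeks, and 3 of 21 genes changed, all higher, Irf7 among them (change 0.87 ± 0.22, adjusted p = 0.0186). Irf7 did not pass without 7-week Npc1-/- mouse 3 (adjusted p = 0.0550) or 5-week Npc1-/- mouse 3 (adjusted p = 0.0729). For the respiratory chain they were -0.01 and -0.26, with 4 of 29 genes lower. The total of 367 changes moved with single arrays, to 636 without 7-week Npc1+/+ mouse 1, 228 without 7-week Npc1+/+ mouse 3 or 4, 164 without 5-week Npc1-/- mouse 3 and 237 without 5-week Npc1+/+ mouse 4.

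Against 9 weeks fewer genes changed. The genotype difference was higher at 7 than at 9 weeks for 47 genes (0.372%) and lower for 63 (0.498%). Anxa1, a phospholipid-binding protein of myeloid cells, was at 9.11, 8.92, 8.83 and 9.16 in Npc1-/- livers, against 5.84, 6.55, 6.52 and 6.47 in Npc1+/+ livers at 7 weeks. At 9 weeks it was at 10.12, 9.60, 9.92 and 10.34 in Npc1-/- livers, against 6.18, 6.72, 5.90 and 6.25 in Npc1+/+ livers (7 minus 9 weeks -1.07 ± 0.26, adjusted p = 0.0348), and this change no longer passed in 11 of 16 fits that left out 1 array of 7 or 9 weeks (adjusted p 0.0506 to 0.0927). Tm4sf19, a membrane protein of the tetraspanin-like family, was at 8.37, 7.64, 7.73 and 8.53 in Npc1-/- livers, against 4.95, 4.69, 4.79 and 5.18 in Npc1+/+ livers at 9 weeks, and its difference was 0.71 at 5 weeks, 2.12 ± 0.15 at 7 weeks and 3.16 at 9 weeks (7 minus 9 weeks -1.04 ± 0.22, adjusted p = 0.0205, and 0.0535 without 9-week Npc1+/+ mouse 3). Both genes had a larger difference at 9 weeks. Plk3 was higher at 7 weeks than at both other ages, since at 9 weeks it was at 9.03, 7.98, 8.11 and 8.35 in Npc1-/- livers, against 8.34, 7.56, 8.25 and 8.59 in Npc1+/+ livers (7 minus 9 weeks 1.39 ± 0.36, adjusted p = 0.0466), but the change from 9 weeks did not pass in 12 of 16 fits without 1 array (adjusted p 0.0629 to 0.101). Jund, an AP-1 subunit, did likewise, with differences of -0.03 at 5 weeks, 0.62 ± 0.12 at 7 weeks and -0.15 at 9 weeks (7 minus 5 weeks 0.64 ± 0.16, adjusted p = 0.0209; 7 minus 9 weeks 0.77 ± 0.16, adjusted p = 0.0217). The first of these had an adjusted p of 0.0506 and 0.0518 without 7-week Npc1-/- mouse 1 or 3, and the second 0.05405 and 0.0647 without 9-week Npc1-/- mouse 2 or Npc1+/+ mouse 3. Gpnmb, at a difference of 6.72, did not change by this test (-0.13 ± 0.23, adjusted p = 0.836).

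The count of 110 changes between 7 and 9 weeks moved by more than 1.5 times with many single arrays. It was 51, 32, 48, 65 and 51 without 7-week Npc1-/- mouse 1 or 4 or 7-week Npc1+/+ mouse 2, 3 or 4, in that order. Without 9-week Npc1-/- mouse 1, 2, 3 or 4 it was 34, 39, 67 and 67, and without 9-week Npc1+/+ mouse 1, 2, 3 or 4 it was 34, 293, 16 and 57. At an unadjusted p below 0.05, 2071 genes changed against 5 weeks and 1996 against 9 weeks.

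**Figure D4:**
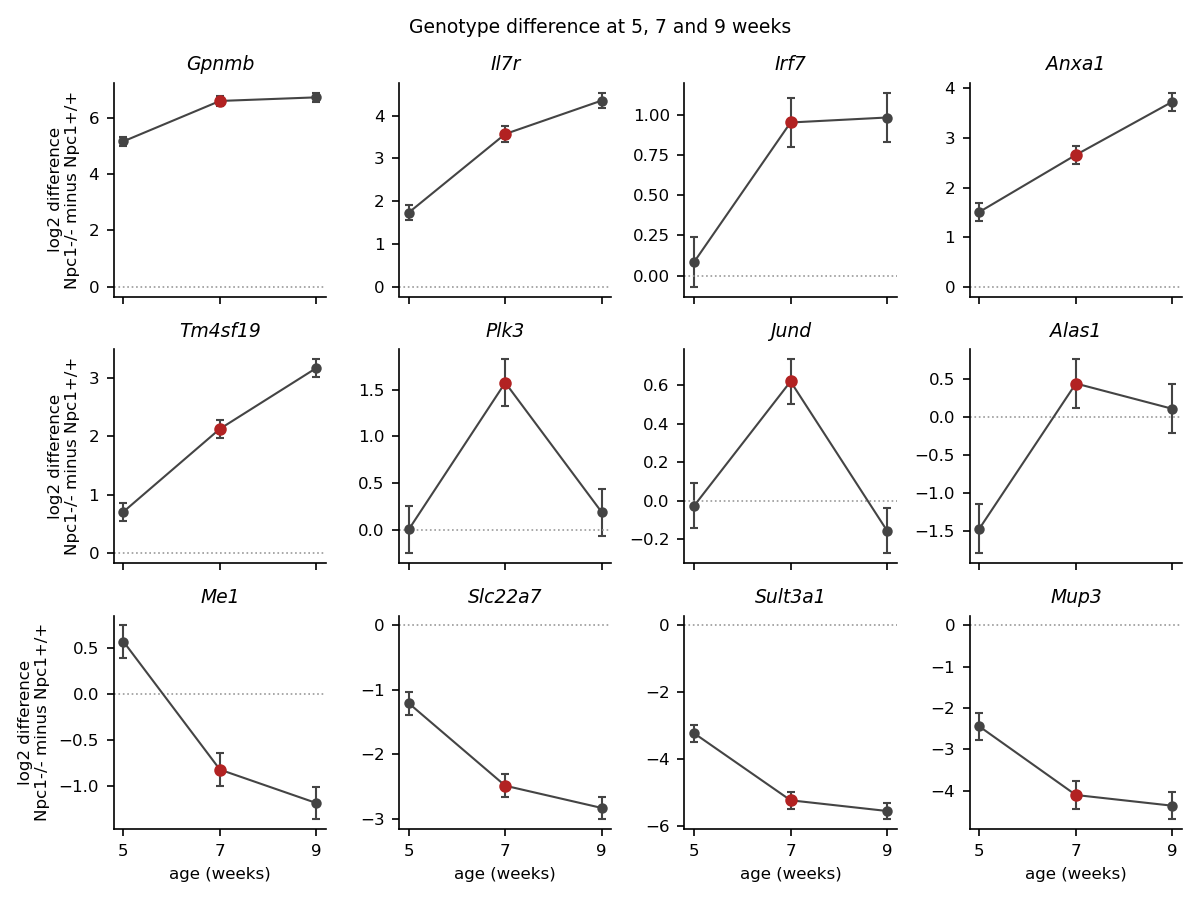
Log2 difference between the genotypes, Npc1-/- minus Npc1+/+, against age in weeks for 12 genes that passed the test of a change between 7 and 5 or between 7 and 9 weeks. Each point is the fitted difference of 4 mice against 4, with its standard error as the bar, the 7-week point in red and no difference as the dotted line; Plk3 is at 0.00, 1.58 ± 0.25 and 0.19 at the 3 ages, and Tm4sf19 at 0.71, 2.12 ± 0.15 and 3.16.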

How the data were processed

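Liver RNA was measured on 78 Affymetrix arrays. TRIzol and an RNeasy kit were used for extraction and biotinylated cRNA was hybridised, per the labels' protocols. The deposited values are log2 expression for 35556 probe sets (1.79 to 14.6), and RMA and Partek 6.5 appear in the submitters' processing notes, which give no role for either. A probe set was named from the platform annotation where that gave 1 symbol (21789 probe sets, against 1621 with several and 12146 with none or not listed), and where several named 1 gene the brightest on average was kept (19938 genes, 999 with several probe sets). Every column had a sample, and no arrays were identical.

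Of these, 12638 were tested, those that exceeded 5.54, the median over the whole table, on 4 or more of the 48 arrays of the age series. One mean per group was fitted over the 12 groups with limma 3.58.1 (R 4.3.3), so all groups share 1 estimate of spread, and p-values were Benjamini-Hochberg adjusted with a threshold of 0.05. The code of the fit was checked on simulated data with independent genes, few of them changed, which gives no error rate for these arrays. The labels call the mice biological replicates. The p-values set each difference against the spread between mice within groups, estimated over all 12 groups. With 4 arrays a group their number limits the precision, and no detection calls were used. A list's level is the mean of all its members on the array, whether tested or not.

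The comparison and the gene lists were chosen with earlier results of these data known. Genes were named by rule: Npc1, the 20 highest and 20 lowest differences past the threshold, up to 6 members per list, and the 8 highest and 8 lowest changes between ages, without clone names. Members that did not pass may be named as such. Cd36, Ctse, Il18, Lamp2, Lipa, Npc2 and Sod2 were chosen after their values were seen. Alternatives covered the threshold, filter, normalization, probe set rule, variance model, arrays fitted, a replicate block and each array left out. Figures were drawn with matplotlib 3.10.9.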

Additional observations from a re-analysis of the deposited data

Results flagged for a closer look

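Among 456 sets of 4 livers of 1 genotype, 1 set for each named gene or list, 21 had a liver apart from the other 3, by a gap that took up more of the whole range than Dixon's critical value for 4 samples. Chance alone gives about 1 in 20. In Npc1-/- livers these were mouse 1 for Gpr65 (5.47) and the skeletal muscle list (5.34), mouse 2 for Lyve1 (6.46), mouse 3 for Atp6v0d2 (9.49), Ebp (10.48) and the lists of Nrf2 targets (8.99) and male-biased genes (6.21), and mouse 4 for Nfil3 (7.92), Plk3 (8.50) and the clock list (7.21). In Npc1+/+ livers they were mouse 1 for Anxa1 (5.84), Cux2 (7.51), Fcer1g (6.76), Hspa5 (11.19) and Tgfb1 (6.25), mouse 2 for Cd68 (7.23) and the bile acid transporter list (9.42), mouse 3 for Ddit3 (6.10), Egfr (10.52) and the skeletal muscle list (6.39), and mouse 4 for the oxidase list (8.47).

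The genotype difference changed between 5 and 7 weeks, by the test of the change, for 49 of 171 named genes. Values are the 7-week minus the 5-week difference on the log2 scale, and either genotype can move them. For Lpl the Npc1-/- mean was 9.82 at 5 weeks and 10.10 at 7 weeks, and the Npc1+/+ mean was 7.21 and 6.42. At 5 weeks Npc1+/+ mouse 1 was at 7.98 for Lpl, against 6.94 to 6.97 in the other Npc1+/+ livers. Macrophage and lysosomal genes with a higher difference at 7 weeks were Atp6v0d2 (1.48), Gpnmb (1.43), Lgals3 (1.28), Gpr137b (1.22), Itgax (1.11), Lpl (1.07), Cd68 (1.06), Abcg1 (0.88), Ctss (0.82), Gpr137b-ps (0.77), Lgmn (0.60), Ctsd (0.47), Npc2 (0.44) and Psap (0.40). Immune and oxidant genes were Il7r (1.83), Anxa1 (1.15), Cyba (1.13), Usp18 (1.06), Lgals1 (0.94), Cxcr4 (0.92), Irf7 (0.87), Syk (0.71), Cybb (0.69), Fcer1g (0.68), Hmox1 (0.61) and Cd22 (0.56). The others were Alas1 (1.91), Plk3 (1.58), Tm4sf19 (1.42), Atf3 (1.12), Vim (0.96), Timp2 (0.94), Jund (0.64), Tgfb1 (0.60), Hk3 (0.57) and Cygb (0.50). A lower difference at 7 weeks was seen for Sult3a1 (-2.0045), Mup3 (-1.66), Me1 (-1.40), Sult2a8 (-1.32), Slc22a7 (-1.28), Hao2 (-1.05), Mki67 (-0.92), Otc (-0.66), Ctsc (-0.65), Ebp (-0.64), Tek (-0.57), Ndufb5 (-0.50) and Lamp2 (-0.44).

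Between 7 and 9 weeks the difference changed for 7 named genes. It was higher at 7 weeks for Plk3 (1.39) and Jund (0.77), and lower for Gpr137b-ps (-1.17), Anxa1 (-1.07), Tm4sf19 (-1.04), Gla (-0.78) and Lamp2 (-0.44). For Gpr137b-ps the Npc1+/+ mean was 5.70 at 7 weeks and 4.87 at 9 weeks, near or below the median of all values. Its Npc1-/- mean was 9.30 and 9.64.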

How the results depend on the processing

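The 3195 calls at 7 weeks kept within 1.5 times of that number under every alternative of filter, scaling, probe set rule, variance model and arrays fitted (2405 to 3627), and with each 7-week array left out (2688 to 3246). They fell to 392 with a 2-fold minimum. Npc1 passed under each of these. The 367 changes against 5 weeks became 128 at an adjusted p under 0.01, 60 with the 2-fold minimum, 575 with array weights, 198 when only the arrays of 5 and 7 weeks were fitted, 585 with all 78 arrays, and 164 to 636 with 1 array left out. The 110 changes against 9 weeks became 6, 12, 230, 32 and 250 under the same 5 alternatives in that order, 198 after quantile normalization, and 16 to 293 with 1 array left out. Leaving out 3 arrays of 1 and 3 weeks with a signal of another organ, an alternative chosen after seeing the data, gave 3175, 367 and 92. The causes were not tested. A weaker pancreas signal was left in arrays of the ages compared. Its list level was 6.03 in 5-week Npc1+/+ mouse 1, 5.86 in 5-week Npc1-/- mouse 4 and 5.89 in 9-week Npc1+/+ mouse 4. The 7-week livers lay at 4.74 to 5.23. Without each of those arrays in turn, the changes against that age numbered 312, 350 and 57. Quantile normalization gave 3467 calls at 7 weeks, 1703 higher and 1764 lower (49.1% higher).

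Same-numbered Npc1-/- and Npc1+/+ mice had deviations from their group means that correlated at 0.286, -0.228, 0.110 and 0.059. The sample titles name no pairing, and so few mice cannot show whether the numbers hold one. With the number as a replicate block 3112 genes passed at 7 weeks, 327 against 5 weeks and 56 against 9 weeks, and Cldn7, Lamp2 and the changes of Anxa1 and Plk3 against 9 weeks lost their calls.

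Of 1360 values of the named genes with a 7-week array left out, 43 lost the call and 4 gained it, and none changed direction while called. Centring shifted the median difference of all genes to -0.080 and quantile normalization to -0.039, and both moved small list counts. Acute phase genes that fell numbered 8 after centring, cathepsins 5, respiratory chain subunits 22 and complement and coagulation genes 18. Counts of 1 or 2 members often moved with single arrays. Levels below the median of all values limit the size of a fold, since signal over background was not analysed here.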

Other observations

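Other gene groups gave values that the comparisons above do not use. Of 14 annexins, galectins and S100 proteins, 9 rose and none fell. Lgals1, galectin-1, was at 10.81, 10.60, 10.58 and 10.63 in Npc1-/- livers, against 8.18, 8.36, 8.36 and 7.93 in Npc1+/+ livers (log2 difference 2.44 ± 0.15, adjusted p = 3.41e-17). Erythroid genes, which mark blood formation or blood left in the liver, fell for 2 of 8. Alas2, the haem synthesis enzyme of red cell precursors, was at 7.05, 7.39, 7.26 and 7.17 in Npc1-/- livers, against 7.93, 8.68, 8.33 and 8.43 in Npc1+/+ livers (log2 difference -1.13 ± 0.23, adjusted p = 0.000205), and Car1, carbonic anhydrase 1, at 7.53, 7.65, 7.52 and 7.65 in Npc1-/- livers, against 8.25, 8.42, 8.39 and 8.54 in Npc1+/+ livers (log2 difference -0.81 ± 0.16, adjusted p = 6.68e-05), with no overlap in either. Dio1, which activates thyroid hormone, was at 5.67, 5.18, 5.79 and 6.31 in Npc1-/- livers, against 7.54, 7.21, 8.22 and 7.96 in Npc1+/+ livers (log2 difference -1.99 ± 0.35, adjusted p = 1.75e-05).

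Of 17 genes of the amino acid response, 4 rose and 2 fell, with 2 higher and none lower without Npc1+/+ mouse 3 and 2 higher and 1 lower without Npc1-/- mouse 3. Slc7a5, an amino acid carrier, was at 6.36, 6.13, 6.42 and 6.20 in Npc1-/- livers, against 5.49, 5.57, 5.73 and 5.97 in Npc1+/+ livers (log2 difference 0.59 ± 0.11, adjusted p = 8.53e-05), and Ddit3, the factor CHOP, overlapped at 6.52, 6.72, 7.21 and 7.20 in Npc1-/- livers, against 6.53, 6.60, 6.10 and 6.55 in Npc1+/+ livers (log2 difference 0.46 ± 0.14, adjusted p = 0.0116), and it did not pass without Npc1-/- mouse 3 or 4 or Npc1+/+ mouse 3 (adjusted p 0.0700 to 0.0901). Among 13 genes of glucose handling 1 rose, Ppargc1a (0.66 ± 0.22, adjusted p 0.0619 without Npc1-/- mouse 2 and 0.129 without Npc1+/+ mouse 3), and 3 fell. After quantile normalization 3 rose and 1 fell, and with 1 array left out at a time 0 to 3 rose and 2 to 3 fell. Pparg, a receptor of adipocytes and macrophages, was at 8.52, 8.67, 8.24 and 8.36 in Npc1-/- livers, against 7.43, 7.25, 7.28 and 7.28 in Npc1+/+ livers (log2 difference 1.14 ± 0.12, adjusted p = 6.37e-10). None of 10 pancreas genes passed.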
